A study of Mus musculus with 23 samples.

Results

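The p53 target genes *Mdm2*, *Ccng1*, *Btg2*, *Gadd45a*, *Fas*, *Pmaip1*, *Perp*, *Phlda3*, *Trp53inp1* and *Sesn2*, which the transcription factor p53 is known to switch on, were followed through fibroblasts and T cells that lack Ezh2, Snf5 or both. They are 10 of the 12393 genes that had at least 1 probe set annotated with that gene's symbol alone, and together they had 16 such probe sets. The probe set with the highest mean log2 intensity over all arrays represented each gene. Mouse RNA was measured on Affymetrix Mouse 430A 2.0 arrays, and 23 arrays fell into 6 groups. In fibroblasts cultured from E13.5 mouse embryos (MEFs), 3 wild-type arrays served as controls for 3 Ezh2-deficient arrays, and another 3 wild-type arrays as controls for 3 Snf5 Ezh2-deficient arrays. In mice of 10 to 15 weeks, 6 arrays of purified wild-type CD8+ T cells stood against 5 arrays of CD8+ cells purified from Snf5-deficient T cell lymphomas. Ezh2 is the histone methyltransferase of the Polycomb repressive complex PRC2. Snf5, the product of *Smarcb1*, belongs to SWI/SNF complexes, which move nucleosomes. The series asks how both oppose each other in gene expression programs and which programs Snf5 loss misregulates in tumours. The MEF alleles were inactivated conditionally. The labels name no Cre driver, culture passage, pooling of animals or strain. Fibroblasts lacking Snf5 alone and lymphomas lacking Ezh2 are not analysed here.

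p53 is stabilised by DNA damage, oncogene activity and other stress, and then binds response elements made of a pair of similar short units near its target genes. The targets arrest the cell cycle, promote cell death, change metabolism, or limit p53 itself. *Mdm2* encodes the ubiquitin ligase that marks p53 for degradation, so its induction closes a feedback loop, and the cyclin G1 encoded by *Ccng1* feeds back on the same ligase. In T cells p53 is known as a barrier to lymphoma, and in cultured MEFs it is known for driving the growth arrest that follows culture stress.

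The promoters of these genes were examined for the unit from which p53 response elements are built, a motif of 10 bases that reads alike on both strands. RefSeq windows of 300 bases ran from 250 before to 50 after the annotated start (GRCm38.p6). They were found for 7 of the 10 genes, and *Pmaip1*, *Trp53inp1* and *Perp* were not matched. Windows on 1 chromosome were left out of this match, so a missing match does not show that no window exists. The count over all RefSeq starts below kept that chromosome. An exact unit occurred in the windows of *Mdm2*, *Ccng1* and *Gadd45a*, and none of the 7 windows held a pair of units separated by 13 bases or fewer. Among 32851 windows of all RefSeq starts, 8.36% held at least 1 unit and 0.073% held a pair. The 3 windows with a unit are shown because they belong to both genes of the p53 feedback loop and to *Gadd45a*, which fell in lymphoma. Each is written 5′ to 3′ on the strand of its gene, the minus strand in all 3 cases, with the unit in capitals.
*Mdm2*, chr10:117710709-117711008: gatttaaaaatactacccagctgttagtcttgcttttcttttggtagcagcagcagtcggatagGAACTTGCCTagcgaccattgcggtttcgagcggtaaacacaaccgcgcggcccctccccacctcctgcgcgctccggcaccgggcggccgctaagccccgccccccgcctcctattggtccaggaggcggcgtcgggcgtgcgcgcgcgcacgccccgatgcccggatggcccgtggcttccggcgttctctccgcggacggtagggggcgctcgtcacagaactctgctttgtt
*Ccng1*, chr11:40755237-40755536: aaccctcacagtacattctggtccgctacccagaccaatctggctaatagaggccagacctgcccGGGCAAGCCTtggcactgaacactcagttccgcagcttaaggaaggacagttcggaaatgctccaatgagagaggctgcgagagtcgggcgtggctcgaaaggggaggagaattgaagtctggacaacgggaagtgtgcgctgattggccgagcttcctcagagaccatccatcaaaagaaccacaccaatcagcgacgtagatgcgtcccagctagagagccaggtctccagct
*Gadd45a*, chr6:67037358-67037657: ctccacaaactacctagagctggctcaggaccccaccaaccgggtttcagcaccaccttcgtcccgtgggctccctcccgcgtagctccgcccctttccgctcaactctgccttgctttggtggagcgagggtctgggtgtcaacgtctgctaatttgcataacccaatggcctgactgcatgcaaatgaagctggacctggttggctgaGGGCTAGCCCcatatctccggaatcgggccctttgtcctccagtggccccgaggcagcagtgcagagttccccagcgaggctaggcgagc
The unit began 186 bases before the start of *Mdm2* (GAACTTGCCT), 185 bases before that of *Ccng1* (GGGCAAGCCT) and 40 bases before that of *Gadd45a* (GGGCTAGCCC). A match is a description of these letters and was not measured as a binding site. The response elements for which *Mdm2* and *Gadd45a* are known lie in introns, which these windows do not cover. *Fas*, *Phlda3*, *Btg2* and *Sesn2* had no exact unit in their windows.

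The labelled genotypes were checked through the targeted genes. *Ezh2* was 4.53-fold lower in Ezh2-deficient MEFs and 3.16-fold lower in Snf5 Ezh2-deficient MEFs, and *Smarcb1* was 5.52-fold lower in the latter and 12.5-fold lower in the lymphomas. The lymphomas were uneven. *Smarcb1* read 8.30, 8.49, 5.81, 5.64 and 8.67 in lymphoma arrays 1 to 5, against 10.38 to 11.48 in wild-type CD8+ cells. A second *Smarcb1* probe set read 8.65 to 9.98 in lymphomas against 10.12 to 12.59 in wild type. The mean log2 intensity of 10 fibroblast marker genes lay between 10.6 and 11.27 in every MEF array and between 5.06 and 6.32 in every T cell array, and 8 CD8 T cell markers lay between 10.38 and 12.76 in the T cell arrays. MEF and T cell arrays were normalized apart, so this sets levels across them only as a description. The wild-type MEF arrays of both sets were the same hybridisations processed separately. Same-numbered arrays differed between sets by an SD of 0.0219 to 0.0241 log2 units over bright probe sets, against 0.1371 to 0.152 for different numbers. They were therefore counted once, which left 9 distinct MEF arrays and 20 in all, and both MEF comparisons share all of their controls. Wild-type CD8+ arrays 1 and 6 stood apart from the other 4. Their means over 10 myeloid markers were 12.35 and 12.29, against 6.22 to 8.28 in the other 4 wild-type arrays and 8.45 to 10.61 in the lymphomas, and their *Cd8a* values were 10.73 and 10.59 against 13.32 to 13.64. Their means over 7 B cell markers were 9.94 and 9.79, against 6.62 to 7.41 in the other 4. Wild-type CD8+ arrays 3 and 4 stood apart in another way. Their means over 29 proliferation genes were 8.8 and 9.05, against 10.79 to 11.71 in the other wild-type arrays and 11.6 to 11.87 in the lymphomas, and *Mki67*, a marker of cycling cells, read 9.32 and 9.56 there against 12.57 to 13.68. Lymphoma results are given without either pair where that changes a call. *Eif2s3y*, a Y-linked gene, was at 8.24 in Ezh2-deficient array 1 and at 3.65 and 4.00 in arrays 2 and 3, while every other MEF array lay at 8.09 or above. Its level also differed within both T cell groups. The labels call the arrays biological replicates. Values below are log2 of the deposited intensity, tests are limma's moderated test with Benjamini-Hochberg adjustment over all 22626 probe sets, and a gene is called changed at an adjusted p under 0.05.

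In Snf5 Ezh2-deficient MEFs 8 of the 10 genes rose against wild type, none fell, and *Perp* and *Gadd45a* did not pass the test. The called share of all genes in this comparison was 27.5%, with 13.2% higher and 14.3% lower. The 10 genes were chosen with earlier results of these data known, so these shares only describe them. The increases ran from 1.21-fold for *Ccng1* to 3.67-fold for *Fas*, the median change over the 10 genes was 0.54 on the log2 scale, and the median over all genes was -0.003. All 10 changes were above 0, against 49.3% of all genes. In Ezh2-deficient MEFs 0 of the 10 passed limma's test, and all 10 changes were above 0, against 51.0% of all genes. An unadjusted p under 0.05 from that test was found for 5. The share over all genes was not computed, so this count does not show a rise of these genes. There 3.49% of all genes were called, 1.02% higher and 2.47% lower, and the median change of the 10 was 0.18. In bulk RNA a change in the number of cells of a kind and a change in RNA per cell cannot be told apart.

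**Figure D1:**
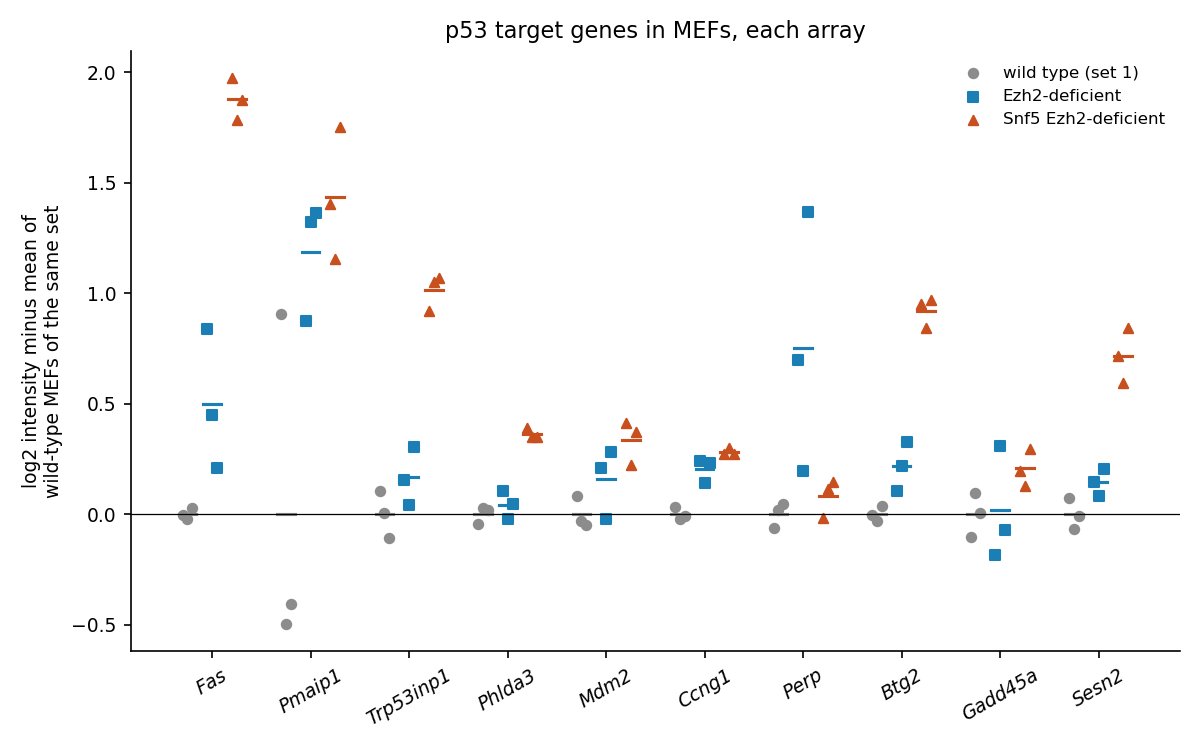
Log2 intensity of each gene in each distinct MEF array minus the mean of the wild-type arrays of its own set; points are arrays, short bars are means of 3 arrays, and the horizontal line is the wild-type mean. All 3 Snf5 Ezh2-deficient arrays lie above every control for 9 genes, while for *Perp* they overlap the controls and the Ezh2-deficient arrays lie above.

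Of the feedback genes, *Mdm2* read 11.48, 11.37 and 11.29 in the second set's controls and 11.79, 11.60 and 11.75 in Snf5 Ezh2-deficient MEFs. The mutant arrays lay above the controls, by 0.34 ± 0.09 log2 units (SE, n = 3 per group, limma adjusted p = 0.0168). It did not pass without wild-type array 2, wild-type array 3, mutant array 1 or mutant array 3 (adjusted p = 0.051 to 0.0657). *Ccng1* lay between 12.77 and 12.79 in those controls and between 13.05 and 13.08 in the mutant arrays, a rise of 0.28 ± 0.05 (adjusted p = 0.00319). The spread within each *Ccng1* group was far below the gap between them. Its other 2 probe sets gave 0.27 and 0.23, with adjusted p = 0.054 and 0.0641, and the other *Mdm2* probe set gave 0.36 (adjusted p = 0.0547). In Ezh2-deficient MEFs *Mdm2* read 11.72, 11.49 and 11.79 against first-set controls of 11.59, 11.48 and 11.46, which overlap. *Ccng1* had a median of 13.09 and a highest value of 13.10 against 12.84 to 12.89 there and did not overlap, but its change of 0.20 had an adjusted p of 0.0695.

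The death receptor gene *Fas*, whose product triggers caspases when bound by its ligand, had the largest rise. It read 7.25, 7.27 and 7.31 in the second set's controls and 9.25, 9.06 and 9.15 in Snf5 Ezh2-deficient MEFs, 3.67-fold higher (adjusted p = 8.99e-06). In Ezh2-deficient MEFs *Fas* read 8.25, 7.86 and 7.62 against 7.41, 7.39 and 7.44 in the first set's controls. All 3 arrays lay above the controls but spread widely, and the change of 0.50 ± 0.13 had an adjusted p of 0.067. Without Ezh2-deficient array 3 it was 0.64 with an adjusted p of 0.0254. No other fit without a single array passed (adjusted p = 0.0894 to 0.19), and without Ezh2-deficient array 1 the change was 0.33. *Fas* is also known as an interferon-responsive gene, and of 19 interferon-stimulated genes 15 rose (78.9%, against 13.2% of all genes) and 1 fell in Snf5 Ezh2-deficient MEFs, with *Cxcl10*, an interferon-induced chemokine, 12.9-fold higher. The mean log2 intensity of that list was 6.38 to 6.42 in the wild-type arrays, 6.38 to 6.96 in Ezh2-deficient arrays and 7.50 to 8.39 in the double-deficient arrays, and its part in the *Fas* rise was not tested.

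*Pmaip1* encodes Noxa, a BH3-only protein that inactivates the survival factor Mcl1. It read 10.27, 8.82 and 8.95 in the second set's controls and 10.75, 10.50 and 11.10 in Snf5 Ezh2-deficient MEFs. Wild-type array 1 lay more than 1 log2 unit above the other controls and just under the lowest mutant array. The change was 1.43 ± 0.33 (adjusted p = 0.00836). In Ezh2-deficient MEFs *Pmaip1* read 10.28, 10.73 and 10.77 against first-set controls of 10.31, 8.91 and 9.0, so the groups overlapped through that control. The change of 1.18 ± 0.33 had an adjusted p of 0.0751, and without wild-type array 1 it was 1.64 with an adjusted p of 0.00481. No other fit without a single array passed (adjusted p = 0.121 to 0.23). The *Pmaip1* difference between both mutant groups was 0.25 with a 95% interval from -0.475 to 0.975.

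*Perp*, which encodes a membrane protein of desmosomes that also promotes apoptosis, followed another pattern. Snf5 Ezh2-deficient MEFs read 8.97, 9.10 and 9.13 against 8.87, 9.03 and 9.06 in their controls, and the groups overlapped (change 0.08, 95% interval -0.416 to 0.572, adjusted p = 0.846). Ezh2-deficient MEFs read 9.69, 9.19 and 10.36 against 8.93, 9.01 and 9.04. Those 3 arrays all lay above their controls and differed from each other by more than 1 log2 unit, and the change of 0.76 ± 0.22 had an adjusted p of 0.0886. It passed without Ezh2-deficient array 2, at 1.04 (adjusted p = 0.014). No other fit without a single array passed (adjusted p = 0.115 to 0.211), and without Ezh2-deficient array 3 the change was 0.45. Between both mutant groups, *Perp* was the only one of the 10 genes lower in the double-deficient MEFs, by 1.60-fold (adjusted p = 0.0455). That difference did not pass without Ezh2-deficient array 1 or 3, or without any 1 of the 3 double-deficient arrays (adjusted p = 0.0705 to 0.12), and it was -0.37 without Ezh2-deficient array 3. With the level of *Eif2s3y* as a covariate its adjusted p was 0.225.

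*Phlda3* encodes a PH-domain protein that competes with Akt for membrane lipids. It lay between 11.80 and 11.88 in the second set's controls and between 12.20 and 12.24 in Snf5 Ezh2-deficient MEFs, a rise of 0.36 ± 0.06 (adjusted p = 0.00101). In Ezh2-deficient MEFs it ranged from 11.91 to 12.04 against 11.89 to 11.96, and the ranges overlapped (adjusted p = 0.662). *Trp53inp1* encodes a nuclear protein that takes part in p53-dependent death and in autophagy. It read 10.05, 9.95 and 9.85 in the second set's controls and 10.87 to 11.02 in Snf5 Ezh2-deficient MEFs, 2.02-fold higher (adjusted p = 2.02e-05), and its second probe set was 1.81-fold higher (adjusted p = 0.000694). Both *Trp53inp1* probe sets thus rose without overlap. In Ezh2-deficient MEFs its main probe set read 10.26, 10.15 and 10.41 against 10.21, 10.11 and 10.00, which overlap (adjusted p = 0.248).

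Among the growth arrest genes, *Btg2*, an antiproliferative protein that recruits the mRNA deadenylation machinery, read 10.25, 10.23 and 10.27 in the second set's controls and 11.20, 11.09 and 11.22 in Snf5 Ezh2-deficient MEFs. It rose 1.89-fold (adjusted p = 1.25e-05), and its second probe set rose 2.00-fold (adjusted p = 0.000181). In Ezh2-deficient MEFs *Btg2* read 10.41, 10.52 and 10.63 against 10.30, 10.27 and 10.34. These groups did not overlap, but the change of 0.21 ± 0.07 had an adjusted p of 0.107. *Gadd45a*, a stress sensor that acts in cell cycle checkpoints and DNA repair, lay between 7.52 and 7.69 in Snf5 Ezh2-deficient MEFs against 7.29 to 7.49 in their controls. The groups were separate by a narrow gap, and the change of 0.20 (95% interval -0.05 to 0.458) had an adjusted p of 0.237. In Ezh2-deficient MEFs it ranged from 7.28 to 7.77 and covered the whole range of the controls, 7.36 to 7.56.

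*Sesn2* encodes sestrin 2, a stress-induced inhibitor of mTORC1 signalling that senses leucine. It read 8.70, 8.58 and 8.6 in the second set's controls and 9.34, 9.22 and 9.47 in Snf5 Ezh2-deficient MEFs, 1.65-fold higher (adjusted p = 8.24e-05), and its second probe set was 1.69-fold higher (adjusted p = 3.66e-05). In Ezh2-deficient MEFs it read 8.94, 8.88 and 9.0 against 8.87, 8.73 and 8.79, a change of 0.14 with an adjusted p of 0.261. *Sesn2* also belongs to a list of 20 genes of the amino acid stress response, of which it was the only one to rise in Snf5 Ezh2-deficient MEFs (5.0%, against 13.2% of all genes), while 3 fell (15.0%, close to the 14.3% of all genes).

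Across the 10 genes the groups did not overlap for 9 in the Snf5 Ezh2-deficient comparison and for 5 in the Ezh2-deficient comparison. Over all genes the groups did not overlap for 43.9% and 33.7%. Compared directly, Snf5 Ezh2-deficient MEFs exceeded Ezh2-deficient MEFs for 5 genes, against 16.3% of all genes higher, and fell below them for *Perp*, against 13.6% lower, with 29.9% called in all. The difference was above 0 for 9 of the 10, against 44.9% of all genes, and the groups did not overlap for 7, against 44.2%. The 5 higher genes were *Fas* (2.60-fold), *Trp53inp1* (1.80-fold), *Btg2* (1.63-fold), *Sesn2* (1.49-fold) and *Phlda3* (1.25-fold), with adjusted p-values from 5.56e-05 to 0.00227. *Mdm2* (difference 0.18, 95% interval -0.014 to 0.373), *Ccng1* (0.08, -0.038 to 0.198), *Pmaip1* and *Gadd45a* (0.19, -0.066 to 0.442) did not pass. Without Ezh2-deficient array 2, the *Gadd45a* difference was 0.33 and passed (adjusted p = 0.017), the only fit without a single array in which it did. Of 29 proliferation genes 20 fell (69.0%, against 2.47% of all genes) and none rose in Ezh2-deficient MEFs. In double-deficient MEFs 1 rose and 1 fell (3.45% each, against 13.2% and 14.3%). In the direct comparison 25 were higher (86.2%, against 16.3%). Their part in the differences among the p53 targets was not tested.

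**Figure D2:**
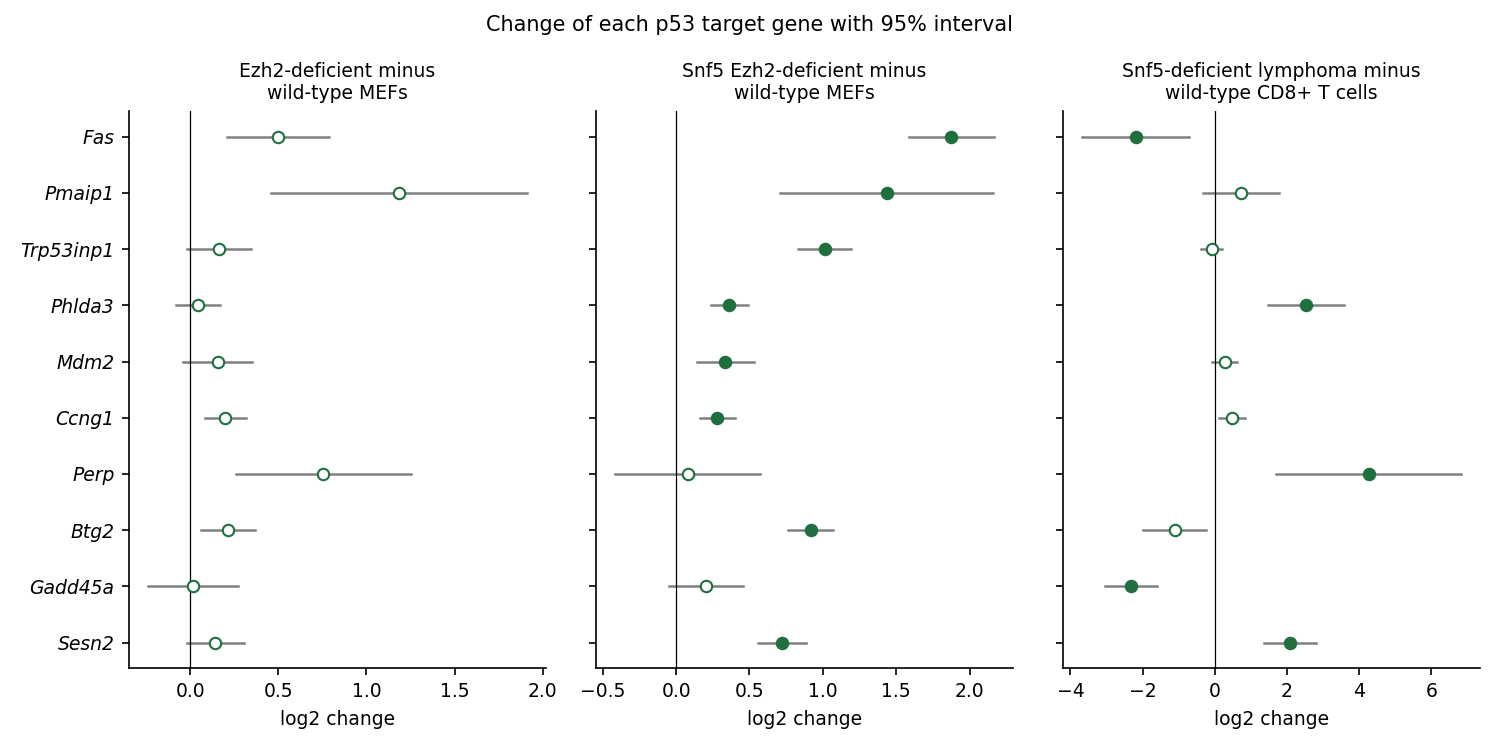
Log2 change of each gene in 3 comparisons with its 95% interval from limma; filled circles passed an adjusted p of 0.05, open circles did not, and the horizontal scales differ between panels. In Snf5 Ezh2-deficient MEFs all 10 changes lie above 0, whereas in lymphoma 3 filled circles lie above 0 and 2 below.

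In Snf5-deficient lymphomas the 10 genes split. *Perp*, *Phlda3* and *Sesn2* rose, *Gadd45a* and *Fas* fell, and *Mdm2*, *Ccng1*, *Pmaip1*, *Btg2* and *Trp53inp1* did not pass. In this comparison 16.8% of all genes were called, 9.13% higher and 7.71% lower, and the groups did not overlap for 12.8% of all genes against 5 of the 10. The median change of the 10 was 0.38, beside -0.066 over all genes, and 6 of the 10 changes were above 0, against 44.2%. The number called fell to 3 when wild-type array 2, 3 or 4 or lymphoma array 1, 3, 4 or 5 was left out. *Phlda3*, *Gadd45a* and *Sesn2* were the 3 in each of those fits. All genes called also fell there, from 2088 to between 1408 and 1808. Without wild-type arrays 3 and 4 together, a choice made after seeing the data, the same 3 members were called. In that fit 14.9% of all genes were called. Of 29 proliferation genes 4 rose (13.8%, against 9.13% of all genes) and none fell in lymphoma. All 29 changes were above 0, with a median of 1.18. Without arrays 3 and 4 that median was 0.37 and 1 rose (3.45%), where 14.9% of all genes were called in either direction. Without arrays 1 and 6 the median was 1.86 and 19 rose (65.5%), where 26.4% were called. The part of proliferation in the changes of the p53 targets was not tested.

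**Figure D3:**
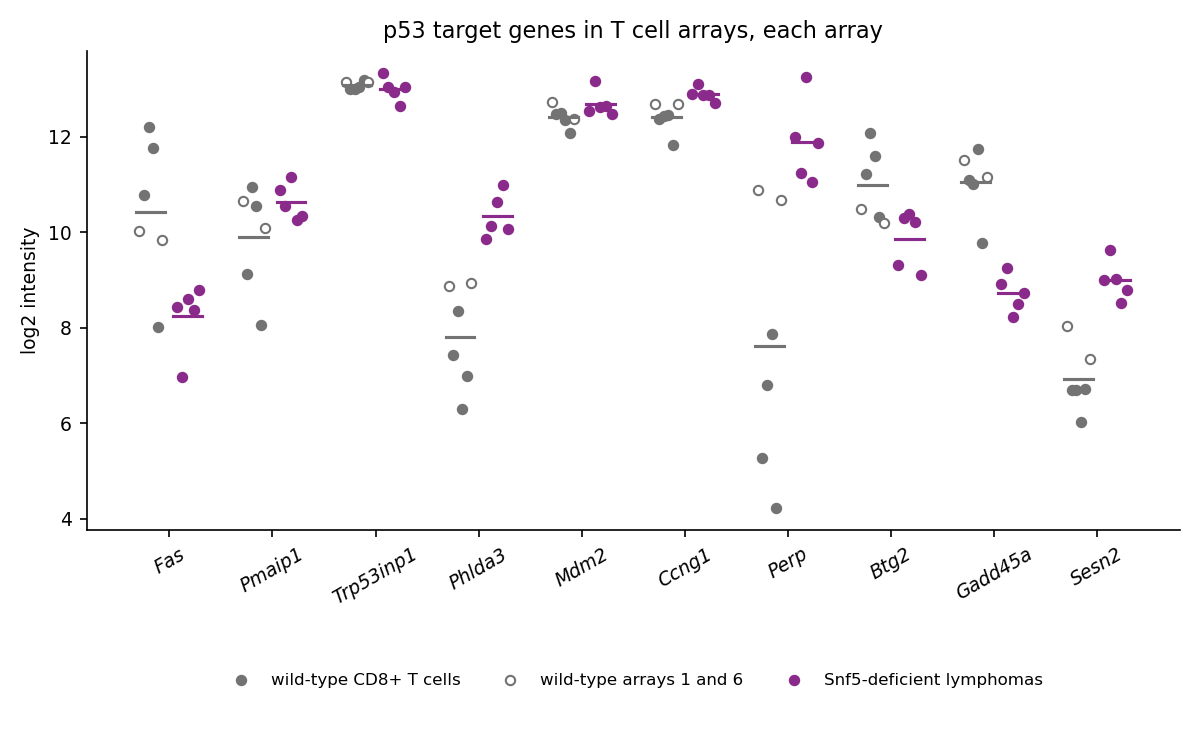
Log2 intensity of each gene in each T cell array; points are arrays, bars are group means (6 wild-type and 5 lymphoma arrays), and open circles mark wild-type arrays 1 and 6, which had high myeloid and B cell markers. *Phlda3*, *Sesn2* and *Perp* lie higher in all lymphoma arrays than in any wild-type array, and *Gadd45a* lies lower.

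Neither feedback gene passed through its main probe set. *Mdm2* ranged from 12.08 to 12.73 in wild-type CD8+ cells and from 12.47 to 13.16 in lymphomas, with medians of 12.41 and 12.62. The ranges overlapped, and the change was 0.27 (95% interval -0.083 to 0.623, adjusted p = 0.286). The other *Mdm2* probe set gave a larger change of 1.13 that did not pass either (95% interval -0.113 to 2.372, adjusted p = 0.206). *Ccng1* ranged from 11.83 to 12.69 in wild type and from 12.71 to 13.11 in lymphomas, so all lymphoma arrays lay above all wild-type arrays by a narrow margin. The change of 0.48 had an adjusted p of 0.0764, and 0.0249 without wild-type arrays 1 and 6. Its other 2 probe sets, at lower signal, were 2.72-fold and 2.39-fold higher (adjusted p = 0.0058 and 0.000877), so the *Ccng1* probe sets disagree on the call but not on the direction.

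Among the genes of cell death and survival, *Perp* read 10.88, 5.27, 6.81, 7.86, 4.22 and 10.67 in wild-type arrays 1 to 6 and 11.99, 11.23, 13.24, 11.06 and 11.87 in the lymphomas. The lymphomas all lay above wild type, and the wild-type arrays with high values were 1 and 6, those with high myeloid and B cell markers. *Perp* was 19.2-fold higher in lymphoma (4.26 ± 1.16, adjusted p = 0.0309). The rise did not pass without wild-type array 2, 3 or 4 or without lymphoma array 1, 3, 4 or 5, or with *Eif2s3y* as a covariate (adjusted p = 0.0514 to 0.0771). Without wild-type arrays 1 and 6 together it was larger, 5.84 on the log2 scale (adjusted p = 0.000605), and without arrays 3 and 4 together it was 4.12 and did not pass (adjusted p = 0.0848). The value of wild-type array 5 lay in the lowest 25% of its array's intensities, where RMA values give little resolution. *Perp* is known from epithelia. Of 9 epithelial markers 1 was higher and 1 lower in lymphoma, and their mean ranged from 5.70 to 7.36 in wild type and from 6.37 to 6.72 in lymphoma. Of 10 myeloid markers 0 passed limma's test with all arrays, but 8 changes were above 0, with a median of 0.82. Without wild-type arrays 1 and 6 the myeloid mean of every lymphoma lay above that of every remaining wild-type array, and 7 of the 10 markers rose, with a median of 2.59, where 26.4% of all genes were called in either direction. The part of other cell types in the *Perp* change was not tested.

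*Fas* went the other way. It read 10.02, 10.77, 12.20, 11.76, 8.01 and 9.83 in wild-type arrays 1 to 6 and 8.43, 6.97, 8.61, 8.38 and 8.79 in the lymphomas. Wild-type array 5, which also had the highest *Cd4* value (11.11), lay within the lymphoma range, and the other 5 lay above it. The decrease was 4.58-fold (-2.20 ± 0.67, adjusted p = 0.0494). It did not pass in 10 of the 11 fits that left out a single array, all except that without wild-type array 5 (adjusted p = 0.054 to 0.107), nor without wild-type arrays 1 and 6 together (-2.45, adjusted p = 0.0511). The highest *Fas* values were those of wild-type arrays 3 and 4, the arrays with low proliferation genes, and without both the change was -1.42 (adjusted p = 0.131). Of 19 interferon-stimulated genes 14 fell (73.7%, against 7.71% of all genes) and 1 rose in lymphoma, and their mean log2 intensity was 10.12 to 10.76 in wild type and 8.22 to 9.02 in lymphoma. Here again their part in the *Fas* change was not tested.

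**Figure D4:**
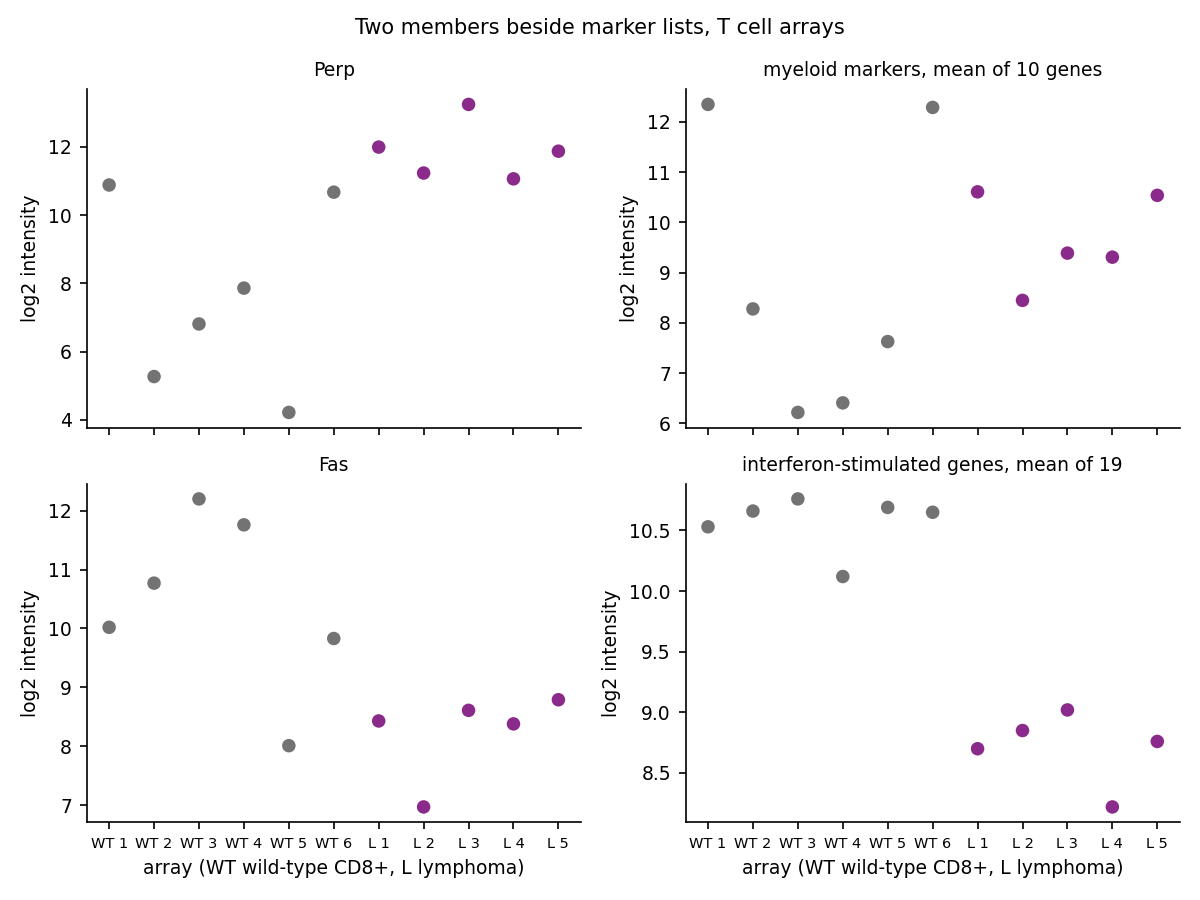
Log2 intensity of *Perp* and *Fas* (left panels) and the mean log2 intensity of 10 myeloid markers and 19 interferon-stimulated genes (right panels) in each T cell array; grey points are wild type and purple points lymphomas, and each vertical axis has its own range. Wild-type arrays 1 and 6 are high for both *Perp* and the myeloid list, and every lymphoma array is below every wild-type array for the interferon list.

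*Phlda3* read 8.87, 7.43, 8.34, 6.30, 7.0 and 8.94 in wild type and 9.85, 10.13, 10.63, 10.99 and 10.07 in lymphomas. All 5 lymphomas lay above all wild-type arrays, 5.74-fold higher on average (adjusted p = 0.00562). *Pmaip1* ranged from 8.05 to 10.95 in wild type and from 10.26 to 11.15 in lymphomas, and the ranges overlapped (change 0.74, 95% interval -0.317 to 1.79, adjusted p = 0.329). *Trp53inp1* was almost level through its main probe set, with medians of 13.09 in wild type and 13.04 in lymphomas and highest values of 13.18 and 13.34 (-0.09, 95% interval -0.386 to 0.207, adjusted p = 0.683). Its second probe set gave 0.32 with a 95% interval from -1.41 to 2.053.

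Of the growth arrest genes, *Gadd45a* had a lowest value of 9.78, a median of 11.13 and a highest value of 11.75 in the 6 wild-type arrays, and read 8.91, 9.26, 8.22, 8.5 and 8.73 in lymphomas. Every lymphoma lay below every wild-type array, and the decrease was 5.01-fold (-2.32 ± 0.33, adjusted p = 0.00109). *Btg2* ranged from 10.20 to 12.08 in wild type and from 9.11 to 10.37 in lymphomas. These ranges overlapped, and the change of -1.12 ± 0.39 had an adjusted p of 0.0791. Without wild-type arrays 1 and 6 it was -1.44 and passed (adjusted p = 0.0298). *Sesn2* read 8.04, 6.70, 6.69, 6.03, 6.72 and 7.35 in wild type and 9.0, 9.63, 9.03, 8.52 and 8.79 in lymphomas. It was 4.20-fold higher with no overlap (adjusted p = 0.0022), and its second probe set was 4.91-fold higher (adjusted p = 0.00188). Of the 20 amino acid stress genes, which include *Sesn2*, 4 rose and 2 fell, or 20% and 10% against 9.13% and 7.71% of all genes.

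Whether a gene moved differently in the double-deficient MEFs and in the lymphomas was tested as the difference of both changes in 1 fit over all distinct arrays. It passed for 7 of the 10 genes, against 24.0% of all genes, and 6 of the 10 differences were above 0, against 53.7%. The change was greater in the MEFs for *Fas* (by 4.07 log2 units), *Gadd45a* (2.53), *Btg2* (2.03) and *Trp53inp1* (1.10), with adjusted p-values from 0.000123 to 0.000925. It was smaller in the MEFs for *Perp* (-4.18, adjusted p = 0.0106), *Phlda3* (-2.16, adjusted p = 0.000986) and *Sesn2* (-1.35, adjusted p = 0.00453). Of these, *Fas* passed in both systems with opposite signs, and *Phlda3* and *Sesn2* rose in both. *Pmaip1* (0.70, 95% interval -1.142 to 2.537), *Mdm2* (0.07, -0.418 to 0.548) and *Ccng1* (-0.20, -0.54 to 0.142) did not pass. These calls are those of the main probe sets. Both other *Ccng1* probe sets passed (-1.18 and -1.02, adjusted p = 0.00891 and 0.00331). The second *Trp53inp1* probe set did not (0.53, adjusted p = 0.638). Nor did the second *Mdm2* probe set, whose difference had the other sign (-0.77, adjusted p = 0.336). Without separate variances for both tissues *Perp* (adjusted p = 0.0971) and *Sesn2* (0.0547) did not pass.

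Beyond the 10, 40 of 48 listed p53 targets had a probe set of their own. This list too was chosen with earlier results of these data known, so its shares are a description. None passed limma's test in Ezh2-deficient MEFs, where 3.49% of all genes were called. Changes above 0 numbered 26 of 40, against 51.0% of all genes. An unadjusted p under 0.05 from that test was found for 14. Here too the share over all genes was not computed, so the count does not show a change of the list. In Snf5 Ezh2-deficient MEFs 25 rose and 4 fell, or 62.5% and 10.0% against 13.2% and 14.3% of all genes, with a median change of 0.46. *Igfbp3*, which encodes a binding protein of insulin-like growth factors, rose 3.68-fold, the xylulose reductase gene *Dcxr* 3.60-fold and *Tap1*, a peptide transporter gene also known to be induced by interferon, 3.02-fold, while the chaperone gene *Hspa4l* fell 2.03-fold. In lymphoma 17 rose and 5 fell, or 42.5% and 12.5% against 9.13% and 7.71%, with a median of 0.65. Without wild-type arrays 1 and 6 the counts were 18 and 7 (45.0% and 17.5%), where 26.4% of all genes were called in either direction. Without arrays 3 and 4 they were 14 and 4 (35.0% and 10.0%), where 14.9% were called. The cytokine gene *Lif* was 23.4-fold higher (1 of its 6 wild-type values lay in the lowest 25%), *Psrc1*, a spindle protein gene, 9.44-fold, and *Dcxr* 6.96-fold, while the DNA damage sensor gene *Xpc* was 4.84-fold lower. *Cdkn1a*, which encodes the cell cycle inhibitor p21, was called higher by 0.26 log2 units in the double-deficient MEFs (adjusted p = 0.0293) and by 3.85 in lymphoma (adjusted p = 0.00311), and its change in Ezh2-deficient MEFs was 0.03 (adjusted p = 0.832). A second *Cdkn1a* probe set disagreed in both MEF comparisons, where it was 6.53-fold and 5.71-fold lower.

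Of 16 measured p53 regulators, 2 rose in Ezh2-deficient MEFs, 3 rose in Snf5 Ezh2-deficient MEFs, and 2 rose and 1 fell in lymphoma. The shares higher were 12.5%, 18.8% and 12.5%, against 1.02%, 13.2% and 9.13% of all genes, so those in the double-deficient MEFs and in lymphoma lay close to the background, as did the 6.25% lower in lymphoma against 7.71%. *Cdkn2a*, which encodes p16Ink4a and the Mdm2 inhibitor p19Arf from overlapping transcripts, rose in all 3 comparisons, by 2.39-fold (adjusted p = 0.0223), 1.84-fold (adjusted p = 0.0175) and 24.6-fold (adjusted p = 0.00151). In wild-type CD8+ cells 3 of 6 *Cdkn2a* values lay in the lowest 25% of their arrays, near the bottom of what the arrays resolve. *Bmi1* was 1.23-fold higher in Ezh2-deficient MEFs (adjusted p = 0.0365) and 1.59-fold higher in double-deficient MEFs (adjusted p = 5.68e-05). The checkpoint kinase gene *Chek2* was 1.54-fold higher in double-deficient MEFs, and *Chek1* was 4.60-fold higher in lymphoma. The regulator that fell in lymphoma was *Hipk2*, 1.73-fold lower (adjusted p = 0.0216). The *Mdm2* partner gene *Mdm4* did not pass in any of the 3 (0.13, 0.21 and -0.05, adjusted p = 0.303, 0.0542 and 0.87).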

How the data were processed

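RNA hybridised to the arrays was summarised by the authors with robust multichip average (RMA), per the labels' protocols, which name no software version or background setting. Deposited values are intensities on a linear scale, 1 per probe set and array, and MEF and T cell arrays were summarised apart, so the genes' levels were not compared between tissues, and the marker check sets levels across them as a description. RMA shrinks differences of dim probe sets. Here log2 was taken, 64 control probe sets of 22690 were left out, and limma 3.58.1 in R 4.3.3 was fitted to the other 22626 with no filter. MEF controls were averaged over both sets after an offset per probe set (median -0.069). Probe sets naming 1 gene numbered 20380, and each gene was taken through its brightest. MEF comparisons used 1 fit of 9 arrays and the T cell comparison 1 of 11, and the test between systems used all 20 with a variance per tissue. The scripts were tested on simulated data. For arrays, depth has no count, and precision is limited by their number.

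The labels say biological replicates and no more, so p-values measure the spread between these samples. Some T cell arrays were much alike. Wild-type arrays 1 and 6 correlated at 0.963 and arrays 3 and 4 at 0.969, while array 2 reached at most 0.918 with another wild-type array. Lymphoma arrays 1 and 5 correlated at 0.979. The fits take all 11 T cell arrays as independent, and the labels do not say whether such arrays share a source. Deviations of same-numbered arrays correlated at -0.273 to 0.178 in MEFs and at 0.075 to 0.351, all above 0, in T cells. The labels tie no numbers to each other and not every pair was clearly above 0, so the reported fits do not pair them. Named were all 10 members in every comparison, up to 5 called genes of the largest change from the lists of other p53 targets and regulators, up to 3 from other lists, *Cdkn1a* and *Mdm4* always, the targeted genes, and promoter windows holding a p53 unit. The members and lists were chosen with earlier results of these data known, and lists are described by counts without a test of their own. Listed genes without a probe set of their own are not analysed here. Alternatives covered normalization, dim probe sets, the variance prior, array weights, *Eif2s3y* as a covariate, other probe sets, separate controls, a replicate block, leaving out each array, and, chosen after seeing the data, leaving out wild-type CD8+ arrays 1 and 6 or 3 and 4.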

Additional observations from a re-analysis of the deposited data

Results flagged for a closer look

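Between both MEF mutants the change against wild type differed for 6 genes by limma's test of the difference (double-deficient minus Ezh2-deficient, log2): *Fas* 1.38, *Trp53inp1* 0.85, *Btg2* 0.70, *Sesn2* 0.58, *Phlda3* 0.32 and *Perp* -0.68. The *Perp* difference depended on single arrays, and *Phlda3* did not pass with the level of *Eif2s3y* as a covariate (adjusted p = 0.0671). Between the double-deficient MEFs and the lymphomas the change differed for 7 genes (MEF minus lymphoma, log2): *Fas* 4.07, *Gadd45a* 2.53, *Btg2* 2.03, *Trp53inp1* 1.10, *Sesn2* -1.35, *Phlda3* -2.16 and *Perp* -4.18.

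Lymphoma array 2 lay far from the other 4 for a pair of genes. For *Fas* it read 6.97 and the nearest array 8.38, a gap of 0.779 of the group's range. For *Mdm2* it read 13.16 and the nearest array 12.63, a gap of 0.77 of the range. Among 20 groups of 5 or 6 arrays examined, chance alone flags about 1 in 20.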

How the results depend on the processing

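Of 910 changes of single members under an alternative, 844 kept direction and side of the threshold, 18 came to pass, 39 no longer passed and 9 changed sign. For those that changed the cause was not tested. In Ezh2-deficient MEFs the members called, 0 in the reported fit, became 1 with an intensity trend and robust prior (*Ccng1*), 3 with array quality weights (*Fas*, *Ccng1* and *Perp*), 1 with *Eif2s3y* as a covariate (*Fas*), 2 with the controls of both sets as separate arrays (*Fas* and *Ccng1*), and 0 to 1 without single arrays. The other p53 targets called there, also 0, became 2 with quantile normalization, 1 with arrays centred on their median, 2 with the dimmest 25% left out, 2 with the trend and robust prior, 4 with array weights, 3 with separate controls, and 0 to 2 without single arrays. All genes called there, 432 in the reported fit, were 73 with the *Eif2s3y* covariate and 907 with array weights. They were 498 with the trend and robust prior, 851 with separate controls, and 88 to 443 without single arrays. Quantile normalization gave 352, centring on the median 429, and leaving out the dimmest probe sets 481. The fit with separate controls takes the same control hybridisations as independent arrays, which understates their spread. In lymphoma the members called were 3 to 5 without single arrays and 3 without wild-type CD8+ arrays 3 and 4, against 5. All genes called in lymphoma, 2088 in the reported fit, were 1408 to 2303 and 1851 in those fits. Signs turned only for changes that did not pass. *Gadd45a* in Ezh2-deficient MEFs (0.02) was -0.039 with array weights, -0.19 with *Eif2s3y*, and -0.13 to 0.12 without single arrays. *Trp53inp1* in lymphoma (-0.09) was 0.032 with *Eif2s3y*, 0.12 as the median over its probe sets, and -0.18 to 0.0012 without single arrays. The *Mdm2* difference between systems (0.07) was -0.35 as the median over probe sets and -4.6e-05 without wild-type CD8+ arrays 1 and 6. Leaving out either pair of arrays was chosen after seeing the data. With the median over probe sets, *Trp53inp1* no longer passed (adjusted p = 0.161) and *Ccng1* passed (adjusted p = 0.00683) in that difference, and *Ccng1* no longer passed in double-deficient MEFs (adjusted p = 0.054). A fit with the replicate block called 0, 8, 6, 5 and 7 members in the 5 comparisons, as did the reported fits, but in lymphoma it lost *Fas* (adjusted p = 0.077) and gained *Btg2* (adjusted p = 0.00812). All genes called with the block numbered 213, 3233, 3423, 2072 and 3394. The reported fits called 432, 3410, 3704, 2088 and 2979. Intensity limits *Perp* most, whose wild-type T cell values reach the dimmest 25%.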

Other observations

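The probe sets of *Cdkn1a* did not behave alike in MEFs. The brighter read 12.51 to 12.66 in wild-type arrays of both sets, 12.62 to 12.68 in Ezh2-deficient MEFs and 12.63 to 12.91 in Snf5 Ezh2-deficient MEFs. The other read 11.16 to 11.60 in wild type, 8.65 to 8.94 in Ezh2-deficient and 8.59 to 9.17 in Snf5 Ezh2-deficient MEFs, a change of -2.71 and -2.51 with no overlap. In lymphoma both rose, by 3.85 and 3.19 on the log2 scale. Which transcripts each probe set reads was not examined.

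Immediate early genes, which respond to growth signals and stress within minutes, were called in both directions. Of 16 measured, 4 rose and 6 fell in Snf5 Ezh2-deficient MEFs (25% and 37.5%, against 13.2% and 14.3% of all genes), where *Klf4* was 1.61-fold higher and *Ier2* 1.80-fold lower. In lymphoma 4 rose and 1 fell (25% and 6.25%, against 9.13% and 7.71%), and *Atf3*, a stress-induced transcription factor, was 4.45-fold higher and *Nr4a1*, induced by T cell receptor signals, 4.08-fold higher.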
